A study of Mus musculus with 14 samples.

Results

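The genes described here encode the kinases that add phosphates to the inositol ring of phosphatidylinositol, the phosphatases that remove them, and the subunits that hold these enzymes in place. They were taken by symbol from a fixed list of class I and class II PI3 kinases, PI 4-kinases, PIP kinases, the PIKfyve complex, inositol lipid phosphatases and myotubularins, and all 47 listed genes were present among the 22203 transcript clusters tested, each as a single transcript cluster. A transcript cluster is the set of array probes that read 1 gene. Expression was measured on 14 Clariom S mouse arrays with RNA from regulatory T cells (Tregs), the CD4+ T cells that express Foxp3 and restrain immune responses. The control group carried Foxp3Cre with 1 floxed and 1 intact Atg14 allele (Foxp3Cre Atg14+/fl), and the group labelled KO carried Foxp3Cre with both alleles floxed (Foxp3Cre Atg14fl/fl). The Cre recombinase was driven by Foxp3, so deletion was directed to Tregs, and both groups carried it. CD45.2+ marrow of either genotype had been mixed 1:1 with CD45.1+ wild-type marrow and given to sublethally irradiated Rag1-/- mice, which lack T and B cells of their own but keep host myeloid cells, and the marrow had 6 to 8 weeks to reconstitute. CD45.2+ Foxp3-YFP+ cells were sorted by CD44 and another surface marker into central Tregs (cTregs, CD44low) and effector Tregs (eTregs, CD44high), giving 4 control cTreg, 3 KO cTreg, 4 control eTreg and 3 KO eTreg arrays. The series text gives the source as spleen plus peripheral lymph nodes, whereas the methods for the arrays mention only spleen. The study's general methods for cell purification name both tissues as the default source. The group sizes are the same in both subsets, so cTreg and eTreg arrays of a genotype may come from the same mice, but which arrays share a mouse is not given. The tests therefore measure the spread between arrays.

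Phosphoinositides are rare membrane lipids whose phosphate pattern tells a protein which membrane it has reached. Class I PI3 kinases act at the plasma membrane below the antigen receptor, CD28 and the IL-2 receptor and make PIP3, which recruits AKT, while SHIP-type phosphatases take PIP3 apart. On endosomes and nascent autophagosomes the main lipid is PI3P, made by Vps34, whose autophagy complex needs the Atg14 protein. PI3P is turned into PI(3,5)P2 by PIKfyve and is hydrolysed by the active myotubularins, which pair with relatives that have lost catalytic activity. The comparison of eTregs with cTregs shows which of these enzymes differ with the activation state of Tregs, and the comparison of KO with control shows which differ with the Atg14 genotype.

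The promoters of 3 members are printed because the results turn on them. The 5-phosphatase gene Inppl1 differed most between Treg subsets, its paralogue Inpp5d is the phosphatase to which it is compared, and the PI3 kinase inhibitor gene Pik3ip1 had the largest drop that passed the test. Sequences are from the RefSeq promoter table for assembly GRCm38.p6, with 250 bases before and 50 after the annotated start. Capitals mark CpG dinucleotides. Inppl1 has 2 annotated starts, at chr7:101838177-101838476 and chr7:101837775-101838074, both on the minus strand. Inpp5d lies at chr1:87620062-87620361 on the plus strand and Pik3ip1 at chr11:3330481-3330780 on the plus strand.
Inppl1 upstream start: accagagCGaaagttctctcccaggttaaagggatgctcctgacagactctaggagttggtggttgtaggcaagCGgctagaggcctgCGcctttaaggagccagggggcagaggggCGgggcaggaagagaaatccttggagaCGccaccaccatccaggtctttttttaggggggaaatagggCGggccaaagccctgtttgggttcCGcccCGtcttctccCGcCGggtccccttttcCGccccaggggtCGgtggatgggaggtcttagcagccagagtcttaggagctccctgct
Inppl1 downstream start: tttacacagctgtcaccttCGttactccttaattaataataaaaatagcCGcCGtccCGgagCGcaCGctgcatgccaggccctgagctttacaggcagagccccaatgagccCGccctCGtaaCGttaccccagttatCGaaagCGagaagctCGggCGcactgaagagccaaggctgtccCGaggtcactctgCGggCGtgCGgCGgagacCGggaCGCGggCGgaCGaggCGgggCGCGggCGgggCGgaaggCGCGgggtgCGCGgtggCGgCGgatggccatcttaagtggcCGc
Inpp5d: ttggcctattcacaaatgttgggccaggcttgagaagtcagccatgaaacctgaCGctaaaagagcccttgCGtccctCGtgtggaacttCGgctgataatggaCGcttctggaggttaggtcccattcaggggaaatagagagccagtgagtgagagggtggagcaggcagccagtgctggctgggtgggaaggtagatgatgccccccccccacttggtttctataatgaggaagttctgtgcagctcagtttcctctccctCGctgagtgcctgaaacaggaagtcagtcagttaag
Pik3ip1: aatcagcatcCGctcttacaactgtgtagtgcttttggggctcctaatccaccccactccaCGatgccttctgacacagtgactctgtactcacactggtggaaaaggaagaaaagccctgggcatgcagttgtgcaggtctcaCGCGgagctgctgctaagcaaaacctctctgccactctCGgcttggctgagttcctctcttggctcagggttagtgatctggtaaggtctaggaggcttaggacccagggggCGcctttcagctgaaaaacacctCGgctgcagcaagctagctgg
The downstream Inppl1 start held 35 CpG dinucleotides at an observed over expected ratio of 1.12, and the upstream start held 12 at a ratio of 0.447. The Inpp5d promoter held 6 at a ratio of 0.284, and the Pik3ip1 promoter held 7 at a ratio of 0.312. Of the 47 members, 41 had an entry, with 58 promoters in all. Their median observed over expected CpG ratio was 0.716, against 0.384 over the 32851 promoters of the table, so the upstream Inppl1, Inpp5d and Pik3ip1 windows lay below the family median. None of these 4 windows held, on either strand, the FOXO motif GTAAACA, the AP-1 motif TGACTCA or the E-box CACGTG. Over all promoters these letters occurred in 3.65%, 5.20% and 7.15%, and over the member promoters in 6.90%, 3.45% and 8.62%. The FOXO letters were found at Mtmr14, Pi4k2a, Pi4ka and Pik3cg.

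Array medians lay between 8.77 and 8.90 on the log2 scale, and every pair of arrays correlated at 0.962 or higher. Sorting was reflected in Cd44, whose signal was 1.61 log2 units higher in eTregs than in cTregs of controls (limma, adjusted P = 0.000121) and 1.80 higher in KO (adjusted P = 0.000360). The Atg14 signal was not lower in the arrays labelled KO. It was 0.35 higher in KO cTregs and 0.32 higher in KO eTregs (limma, unadjusted P = 0.0213 and 0.0323), neither past the adjusted threshold. It read 9.24, 9.33 and 9.29 in KO cTregs against 9.26, 8.96, 8.64 and 8.89 in control cTregs, and 9.15, 9.004 and 9.32 in KO eTregs against 8.92, 9.01, 8.77 and 8.64 in control eTregs. Where its probes lie relative to the floxed part is not given in the sources used here, so this signal does not check the labels. The study measured Atg14 by quantitative PCR in Tregs of Foxp3Cre Atg14fl/fl mice and states that the deletion efficiency was verified. That measurement was not analysed here. The KO eTreg group was uneven. KO eTreg 1 had the lowest Cd44 of the 7 eTreg arrays (10.60). The mean signal of 14 monocyte and macrophage genes was 10.35 and 10.28 on KO eTreg 2 and 3 but 8.44 on KO eTreg 1. It ranged from 8.65 to 9.02 in control eTregs, from 8.06 to 8.19 in control cTregs and from 8.26 to 8.31 in KO cTregs. Every one of the 14 genes was on average higher in eTregs than in cTregs of controls, with none past the adjusted threshold, and 5 of 14 were past it in KO. The defining marker C1qa read 12.10 and 12.18 on KO eTreg 2 and 3, 8.84 on KO eTreg 1 and 9.66 to 10.32 in control eTregs. Not all other cell type lists followed. Neutrophil genes averaged 7.07 and 7.13 on KO eTreg 2 and 3, against 7.07 to 7.23 in control eTregs. Erythroid genes averaged 8.72 and 8.42, against 8.51 to 8.72. The lists of dendritic, plasma, B, and CD8 T and NK cells were highest on KO eTreg 2 and 3. The mean of 9 dendritic cell genes was 9.18 and 9.42 there against 8.53 on KO eTreg 1 and 8.41 to 8.52 in control eTregs, and 1 of these genes, Siglech, was called higher in KO eTregs (adjusted P = 0.000483). The mean of 5 plasma cell genes was 8.78 and 8.85 against 8.21 and 8.10 to 8.41, and that of 7 CD8 T and NK cell genes was 9.19 and 9.03 against 8.68 and 8.51 to 8.95. The part of these cells in the eTreg results was not tested. The results with the largest KO eTreg differences are also given without KO eTreg 1 and without KO eTreg 2 and 3, which leaves KO eTreg 1 alone in its group. In sorted bulk samples, fewer cells of a type and less RNA per cell cannot be told apart.

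Most members were readily measured in Tregs. Group means of the 47 genes ran from 7.03 for Mtm1 in KO cTregs to 12.75 for Inpp4b in control eTregs, and the standard deviation within groups ran from 0.08 for Pi4ka to 0.75 for Sbf2. On all 14 arrays, 46 members lay above the median of the 23 background control probe sets, the exception being Sbf2 on 1 array. The 95th percentile of those probe sets is a stricter mark. By it, 30 members were above on all arrays, 11 on some, and 6 on none (Pik3r2, Pik3c2b, Pi4k2b, Mtm1, Mtmr1 and Sbf2), so differences of these 6 are differences within the range of background probes. Of the 11, Ocrl was above on no cTreg array, Mtmr7 and Mtmr10 on no KO eTreg array, and Pik3c2a on only some cTreg arrays. Their differences rest partly on signals within that range.

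Between Treg subsets few members were called, and the largest difference by far was that of Inppl1. A member was called when its log2 difference was at least 0.5 and its adjusted P, over all 22203 transcript clusters, was below 0.05. In controls 3 of 47 members were called, against 3.06% of all transcript clusters, with Inppl1 higher and Pik3ip1 and Mtmr9 lower in eTregs. In KO 2 of 47 were called, against 2.35% of all, and these were Inppl1, higher, and Mtmr9, lower. The median difference of the members was -0.04 in controls and 0.03 in KO, beside 0.00 and -0.04 over all transcript clusters. The arrays of eTregs and cTregs did not overlap for 7 of 47 members in controls, where 11.1% of all transcript clusters did not overlap, and for 11 of 47 in KO, where 14% did not. Across both subset and both genotype comparisons 40 members stayed under a log2 difference of 0.5 in each. The KO count depended on individual arrays. A single member was called without KO cTreg 2, KO cTreg 3, KO eTreg 2 or KO eTreg 3, 6 were called without KO eTreg 1, and 0 without KO eTreg 2 and 3 together. The share over all transcript clusters moved with it, to 5.57% without KO eTreg 1 and 0.333% without KO eTreg 2 and 3.

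**Figure D1:**
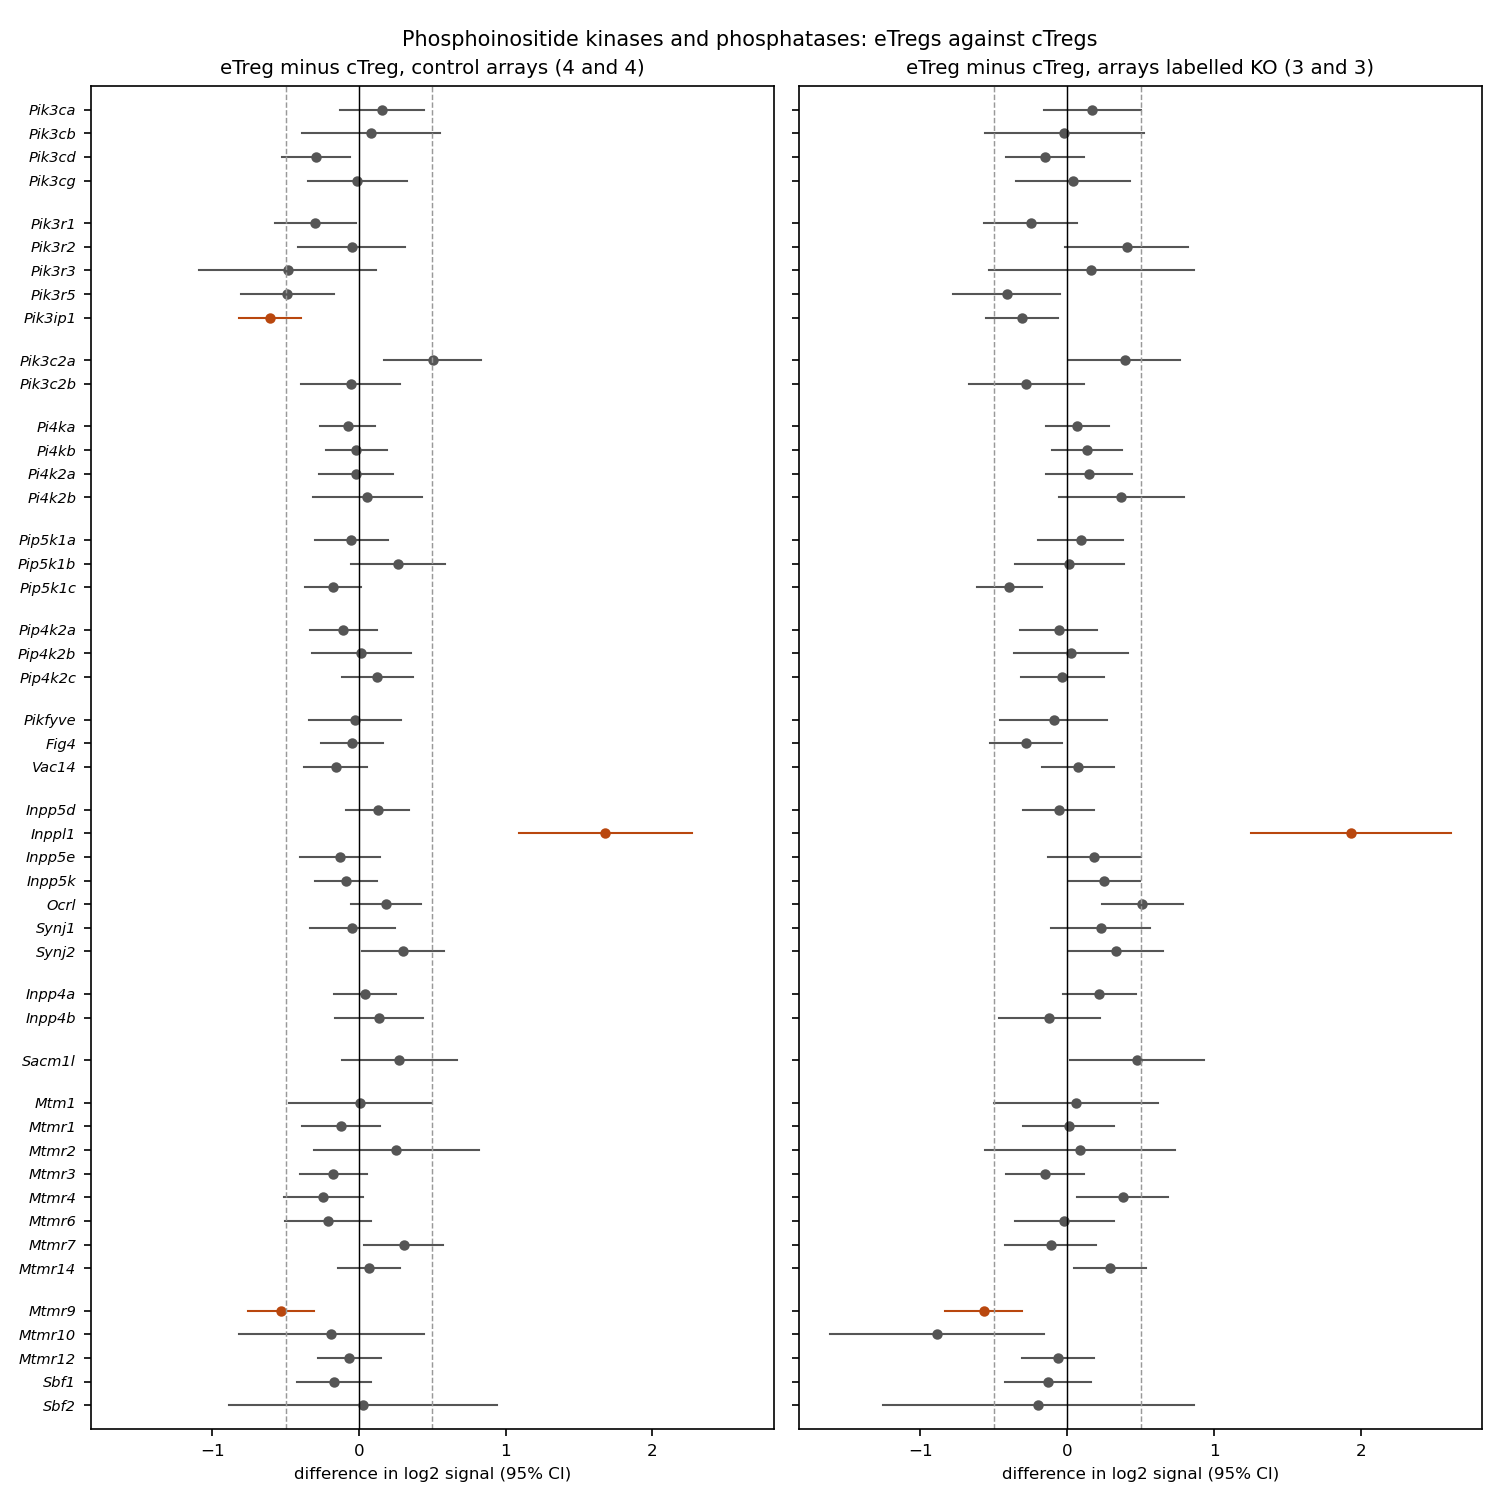
Difference in log2 signal between eTregs and cTregs (x axis) for each of the 47 members (y axis, grouped by role), in controls (left, 4 and 4 arrays) and in KO (right, 3 and 3 arrays). Points are limma estimates, lines are 95% confidence intervals, dashed lines mark a difference of 0.5, and orange marks members called at the adjusted threshold. Inppl1 stands at 1.68 and 1.93, and most other members lie between the dashed lines.

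Inppl1 encodes SHIP2, which removes the 5-phosphate of PIP3 and leaves PI(3,4)P2. Its log2 signal was 8.83, 9.41, 8.47 and 9.37 in control cTregs and 10.71, 11.03, 10.58 and 10.47 in control eTregs. In KO it was 8.26, 9.22 and 9.05 in cTregs and 9.99, 11.17 and 11.17 in eTregs. All 7 eTreg arrays lay above all 7 cTreg arrays, and the signal was above the 95th percentile of background on 7 of 7 eTreg arrays and 0 of 7 cTreg arrays. The difference was 1.68 ± 0.28 (SE) in controls (limma, adjusted P = 0.00195) and 1.93 ± 0.32 in KO (adjusted P = 0.00350). Since the cTreg signals lay within the range of background probes, the fold is a lower bound. Set against the 95th percentile of background on the cTreg arrays, the mean Inppl1 signal was at least 2.16-fold higher in control eTregs and at least 2.09-fold higher in KO eTregs. These bounds hold for group means and not for each array. The KO eTreg mean of 10.78 averages 9.99 on KO eTreg 1 with 11.17 and 11.17, beside a mean KO cTreg mark of 9.72. The KO value was 2.33 without KO eTreg 1 (adjusted P = 4.95e-05) and 1.15 without KO eTreg 2 and 3 (adjusted P = 0.326). KO eTreg 1 was thus the lowest eTreg array for Inppl1 and still above each cTreg array. Over the 7 eTreg arrays Inppl1 rose in the same order as the mean of the monocyte and macrophage genes. That mean was 8.44 on KO eTreg 1, with the lowest Inppl1, and 10.35 on KO eTreg 2, with the highest. The part of other cells in the Inppl1 difference was not tested. The genotype by subset interaction was 0.26 with a 95% confidence interval of -0.64 to 1.16, and the KO minus control difference was 0.08 (-0.56 to 0.72) in eTregs and -0.18 (-0.81 to 0.46) in cTregs. The KO eTreg mean averages arrays on opposite sides of the control eTreg range of 10.47 to 11.03. The KO minus control difference in eTregs was 0.47 without KO eTreg 1 (adjusted P = 0.473) and -0.70 without KO eTreg 2 and 3 (adjusted P = 0.673), and the interaction was 0.65 and -0.53.

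Inpp5d encodes SHIP1, the haematopoietic SHIP that acts on the same lipid. It read 12.24, 12.28, 12.27 and 12.08 in control cTregs and 12.26, 12.46, 12.35 and 12.31 in control eTregs. Its KO signals were 12.20, 12.50 and 12.35 in cTregs and 12.17, 12.24 and 12.45 in eTregs. The subsets overlapped in both genotypes. The eTreg minus cTreg difference was 0.13 (95% confidence interval -0.08 to 0.34) in controls and -0.06 (-0.30 to 0.19) in KO, and both intervals end below the lower limits of the Inppl1 difference, 1.09 and 1.25. The gap between both genes' differences was not itself tested.

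**Figure D2:**
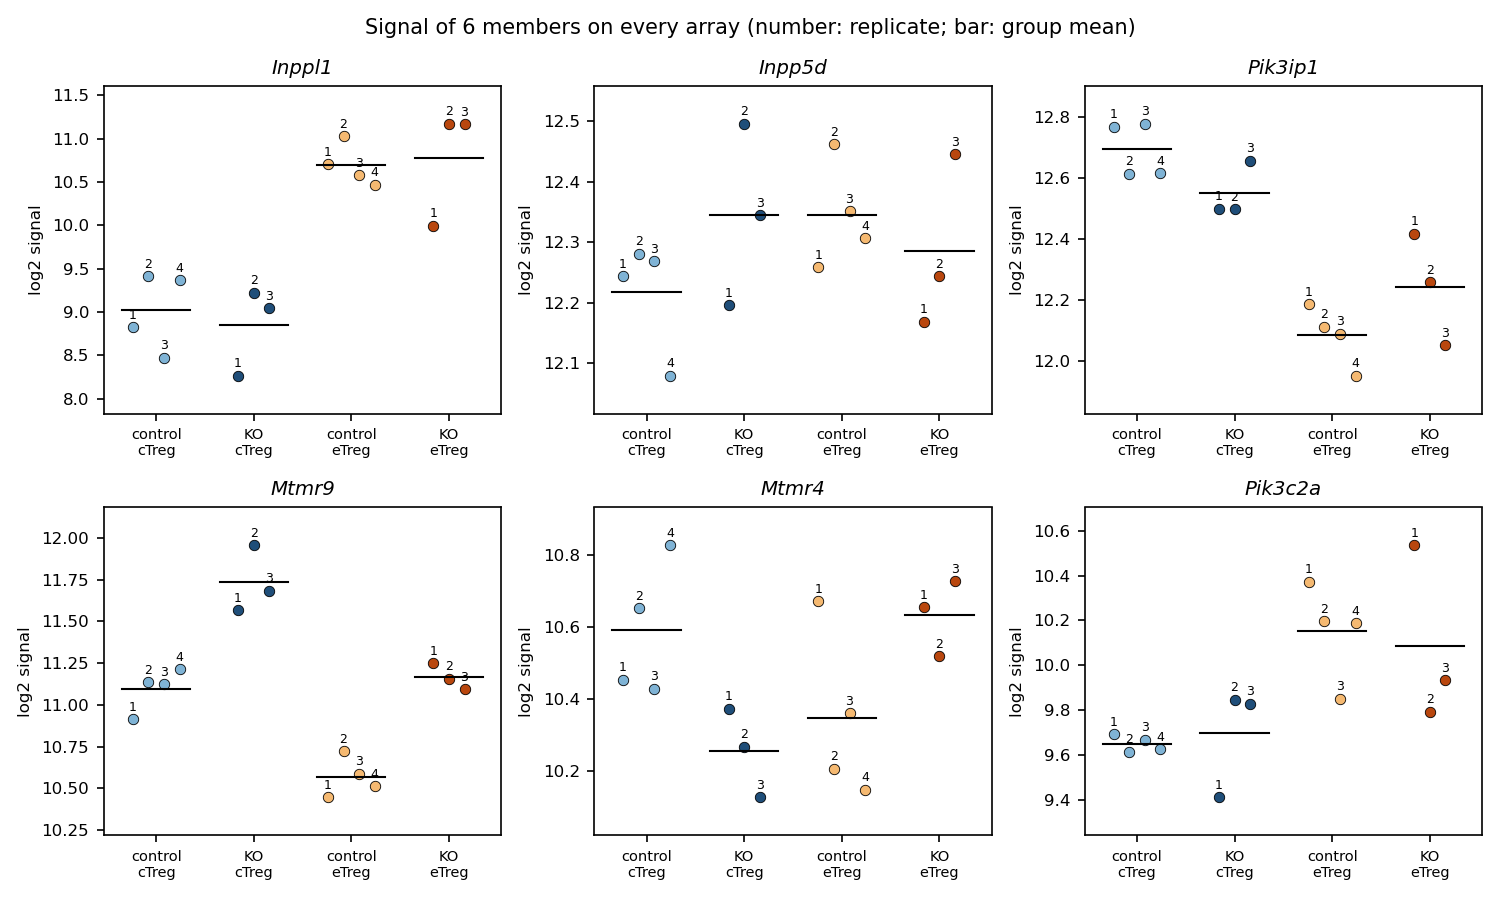
Log2 signal (y axis) of Inppl1, Inpp5d, Pik3ip1, Mtmr9, Mtmr4 and Pik3c2a on each of the 14 arrays, by group (x axis). Points are arrays with their replicate number, bars are group means, and each panel has its own scale. Inppl1 separates all eTreg from all cTreg arrays, and Mtmr9 is higher on every KO than on every control array within each subset.

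None of the other 5-phosphatases was called. Ocrl, an endosomal and Golgi phosphatase, read 9.33, 9.38, 9.23 and 9.40 in control cTregs and 9.25, 9.66, 9.67 and 9.51 in control eTregs. In KO its signals were 9.04, 9.24 and 8.97 in cTregs and 9.52, 9.49 and 9.77 in eTregs, without overlap. The difference was 0.18 in controls (adjusted P = 0.587) and 0.51 in KO (adjusted P = 0.0504), just outside the adjusted threshold. It was 0.55 without KO eTreg 1 (adjusted P = 0.0374) and 0.44 without KO eTreg 2 and 3 (adjusted P = 0.533), and with the replicate number as a block across all groups Ocrl was called (adjusted P = 0.0455). Synj2, a synaptojanin of clathrin-coated vesicles, was 0.30 and 0.33 higher in eTregs of controls and KO, with adjusted P of 0.334 and 0.345. Its relative Synj1 differed by -0.04 and 0.23. The ciliary phosphatase gene Inpp5e differed by -0.13 and 0.18. Inpp5k, whose product acts at the endoplasmic reticulum, differed by -0.09 and 0.25.

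The 4-phosphatases, which convert PI(3,4)P2 to PI3P, were not called between subsets. Inpp4a differed by 0.04 in controls and 0.22 in KO, and Inpp4b by 0.14 and -0.12. Sacm1l, the endoplasmic reticulum phosphatase that removes the phosphate of PI4P, was 0.28 and 0.48 higher in eTregs, with adjusted P of 0.650 and 0.333.

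Among the class I PI3 kinases it was the inhibitor and not a catalytic subunit that was called. Pik3ip1, a membrane protein that binds and restrains the class I catalytic subunits, read 12.77, 12.61, 12.78 and 12.62 in control cTregs and 12.19, 12.11, 12.09 and 11.95 in control eTregs, without overlap. The signal fell by 0.61 ± 0.10 (SE) in control eTregs, to 0.656 of the cTreg level (adjusted P = 0.00188). In KO it read 12.50, 12.50 and 12.66 in cTregs and 12.42, 12.26 and 12.05 in eTregs, also without overlap, and the difference was -0.31 ± 0.12 (adjusted P = 0.222). The KO value was -0.39 without KO eTreg 1 (adjusted P = 0.0783) and -0.13 without KO eTreg 2 and 3 (adjusted P = 0.936). The genotype by subset interaction was 0.30, with a 95% confidence interval of -0.02 to 0.62 (adjusted P = 0.822), so a difference between genotypes in this drop was not shown.

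The regulatory subunits lay on the same side as Pik3ip1 in controls, all 4 of them lower in eTregs, without any passing the threshold. Pik3r5, the p101 partner of the gamma isoform, read 11.13, 10.71, 10.98 and 10.90 in control cTregs and 10.45, 10.43, 10.59 and 10.30 in control eTregs, and its difference was -0.49 (adjusted P = 0.101). In KO it was -0.41 (adjusted P = 0.285), and it was -0.65 without KO eTreg 1 (adjusted P = 0.00930) but 0.06 without KO eTreg 2 and 3. Pik3r1, which encodes p85 alpha, differed by -0.30 in controls (adjusted P = 0.331) and -0.25 in KO. Pik3r2, which encodes p85 beta, differed by -0.05 and 0.41, below the stricter background mark. Pik3r3, which encodes p55 gamma, differed by -0.49 and 0.16 with a wide spread, from 7.91 to 9.78 over the control eTreg arrays. No catalytic subunit gene was called. Pik3ca and Pik3cb, the broadly expressed alpha and beta isoforms, differed by 0.16 and 0.08 in controls and by 0.17 and -0.02 in KO. Pik3cd, the leukocyte delta isoform that serves antigen and cytokine receptors, differed by -0.29 (adjusted P = 0.211) and -0.15. Pik3cg, the gamma isoform of G protein-coupled receptors, differed by -0.01 and 0.04.

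Of the class II PI3 kinases, which make PI3P and PI(3,4)P2 during endocytosis, Pik3c2a was the higher in eTregs. It read 9.69, 9.61, 9.67 and 9.63 in control cTregs and 10.37, 10.20, 9.85 and 10.19 in control eTregs, without overlap, for a difference of 0.50 (adjusted P = 0.106). In KO it read 9.41, 9.85 and 9.83 in cTregs and 10.54, 9.79 and 9.93 in eTregs, for a difference of 0.39 (adjusted P = 0.347). The KO value came mainly from KO eTreg 1 and was 0.17 without it and 0.84 without KO eTreg 2 and 3 (adjusted P = 0.135). Pik3c2b differed by -0.06 and -0.28, below the stricter background mark.

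No kinase that supplies the plasma membrane lipids was called. The PI 4-kinase genes Pi4ka, Pi4kb, Pi4k2a and Pi4k2b, whose products make PI4P at the plasma membrane, Golgi and endosomes, differed by -0.08 to 0.06 in controls and by 0.07 to 0.37 in KO, the highest value being that of Pi4k2b. The PIP 5-kinases turn PI4P into PI(4,5)P2, the substrate of PI3 kinase and phospholipase C. Their genes Pip5k1a and Pip5k1b differed by -0.05 and 0.27 in controls and by 0.09 and 0.01 in KO. Pip5k1c read 10.77, 10.73, 10.85 and 10.88 in control cTregs and 10.62, 10.71, 10.60 and 10.61 in control eTregs. In KO it read 10.88, 11.08 and 10.84 in cTregs and 10.44, 10.55 and 10.63 in eTregs. Its subsets did not overlap in either genotype, but the differences were under the size required, -0.17 (adjusted P = 0.453) and -0.39 (adjusted P = 0.0576). The KO value was -0.35 without KO eTreg 1 (adjusted P = 0.105) and -0.49 without KO eTreg 2 and 3 (adjusted P = 0.300). The PIP 4-kinase genes Pip4k2a, Pip4k2b and Pip4k2c differed by -0.11 to 0.13 in controls and by -0.06 to 0.03 in KO.

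The PIKfyve complex makes PI(3,5)P2 on late endosomes and lysosomes. Pikfyve, the kinase, differed by -0.03 in controls and -0.09 in KO. Vac14, the scaffold, differed by -0.16 and 0.07. Fig4, the phosphatase of the same complex, differed by -0.05 in controls and -0.28 in KO (adjusted P = 0.274), where the subsets did not overlap.

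The active myotubularins hydrolyse the PI3P that Vps34 makes, and none of their 8 genes was called between subsets. Their differences ran from -0.24 for Mtmr4 to 0.30 for Mtmr7 in controls, and from -0.15 for Mtmr3 to 0.38 for Mtmr4 in KO. Mtmr14, which also acts on PI3P, was 0.07 and 0.29 higher in eTregs. Mtmr2 and Mtmr6 differed by 0.25 and -0.21 in controls and by 0.09 and -0.02 in KO. Mtm1 and Mtmr1 stayed within the range of background probes.

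Of the 5 inactive relatives, Mtmr9 was lower in eTregs of both genotypes. Its product has no phosphatase activity of its own and binds Mtmr6 and related enzymes. It read 10.92, 11.14, 11.13 and 11.21 in control cTregs and 10.45, 10.72, 10.59 and 10.51 in control eTregs. In KO it read 11.57, 11.96 and 11.68 in cTregs and 11.25, 11.16 and 11.10 in eTregs, and the subsets overlapped in neither genotype. The signal fell by 0.53 ± 0.11 (SE) in control eTregs (adjusted P = 0.00853) and by 0.57 ± 0.12 in KO eTregs (adjusted P = 0.0210). The KO difference was -0.61 without KO eTreg 1 (adjusted P = 0.0131) and -0.49 without KO eTreg 2 and 3 (adjusted P = 0.455). It also missed the threshold without KO cTreg 2, KO cTreg 3, KO eTreg 2 or KO eTreg 3, with adjusted P of 0.0538 to 0.112, and the control difference was -0.49, under the size required, without control cTreg 4 or control eTreg 1. Mtmr10 had the widest KO difference of the group, -0.89 (95% confidence interval -1.62 to -0.16, adjusted P = 0.240). KO cTreg arrays ran from 8.88 to 9.62 and KO eTreg arrays from 8.23 to 8.91. Only 1 of the 3 KO cTreg arrays and 0 of the 3 KO eTreg arrays lay above the stricter background mark. The Mtmr10 difference was -0.76 without KO eTreg 1 (adjusted P = 0.299) and -1.14 without KO eTreg 2 and 3. Mtmr12 and Sbf1 differed by -0.06 and -0.17 in controls and by -0.06 and -0.13 in KO, and Sbf2 lay in the range of background probes.

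Between genotypes 1 member, Mtmr9, stood out in both subsets, but no member was called at the adjusted threshold, which 0.117% of transcript clusters passed in eTregs, 0.045% in cTregs and 0% in the interaction. At an unadjusted P below 0.05, limma gave 4 members in eTregs, 2 in cTregs and 3 in the interaction, where 8.03%, 4.01% and 6.12% of all transcript clusters were, shares close to those of the members. The study calls genotype differences at an absolute log2 change of at least 0.5 with unadjusted P below 0.05. By that rule 1 of 47 members was past in eTregs, where 2.72% of all transcript clusters were, and 1 of 47 in cTregs, where 0.576% were, and in each case it was Mtmr9. KO and control arrays did not overlap for 4 of 47 members in eTregs, against 6.85% of all transcript clusters, and for 2 of 47 in cTregs, against 5.05%. The median KO minus control difference of the members was 0.03 in eTregs and -0.07 in cTregs, beside -0.02 and 0.02 over all transcript clusters. The eTreg count was 4 without KO eTreg 1, the others then being Pik3c2b, Pi4k2b and Mtmr7. It was 2 without control eTreg 2 or control eTreg 4, and the cTreg count was 2 without KO cTreg 1 or KO cTreg 3. Pik3c2b and Pi4k2b lay within the range of background probes on all arrays. The shares of all transcript clusters in these left-out fits are not given here, so the counts are no result about the members alone.

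Mtmr9 was higher in KO in both subsets. With the array values given above, every KO array lay above every control array within its subset. The difference was 0.60 ± 0.12 (SE) in eTregs, a 1.52-fold higher signal (limma, adjusted P = 0.0685), and 0.64 ± 0.12 in cTregs, a 1.56-fold higher signal (adjusted P = 0.0991). In eTregs it was 0.56 without KO eTreg 1 (adjusted P = 0.0378) and 0.68 without KO eTreg 2 and 3 (adjusted P = 0.174). The interaction was -0.04, with a 95% confidence interval of -0.39 to 0.31. The genotype and the subset comparisons of Mtmr9 share arrays. Mtmr9 lies on chromosome 14, as does the floxed gene Atg14, and RefSeq lists 258 protein-coding genes that start between them. On that chromosome 6 of 923 transcript clusters (0.650%) were past the study's threshold in both subsets in the same direction, and over all chromosomes 29 of 22203 (0.131%) were. The part of chromosomal position in the Mtmr9 difference was not tested. Mtmr6, the catalytic partner of Mtmr9 and the only other member on chromosome 14, differed by 0.08 (-0.23 to 0.40) in eTregs and -0.11 (-0.43 to 0.21) in cTregs.

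**Figure D3:**
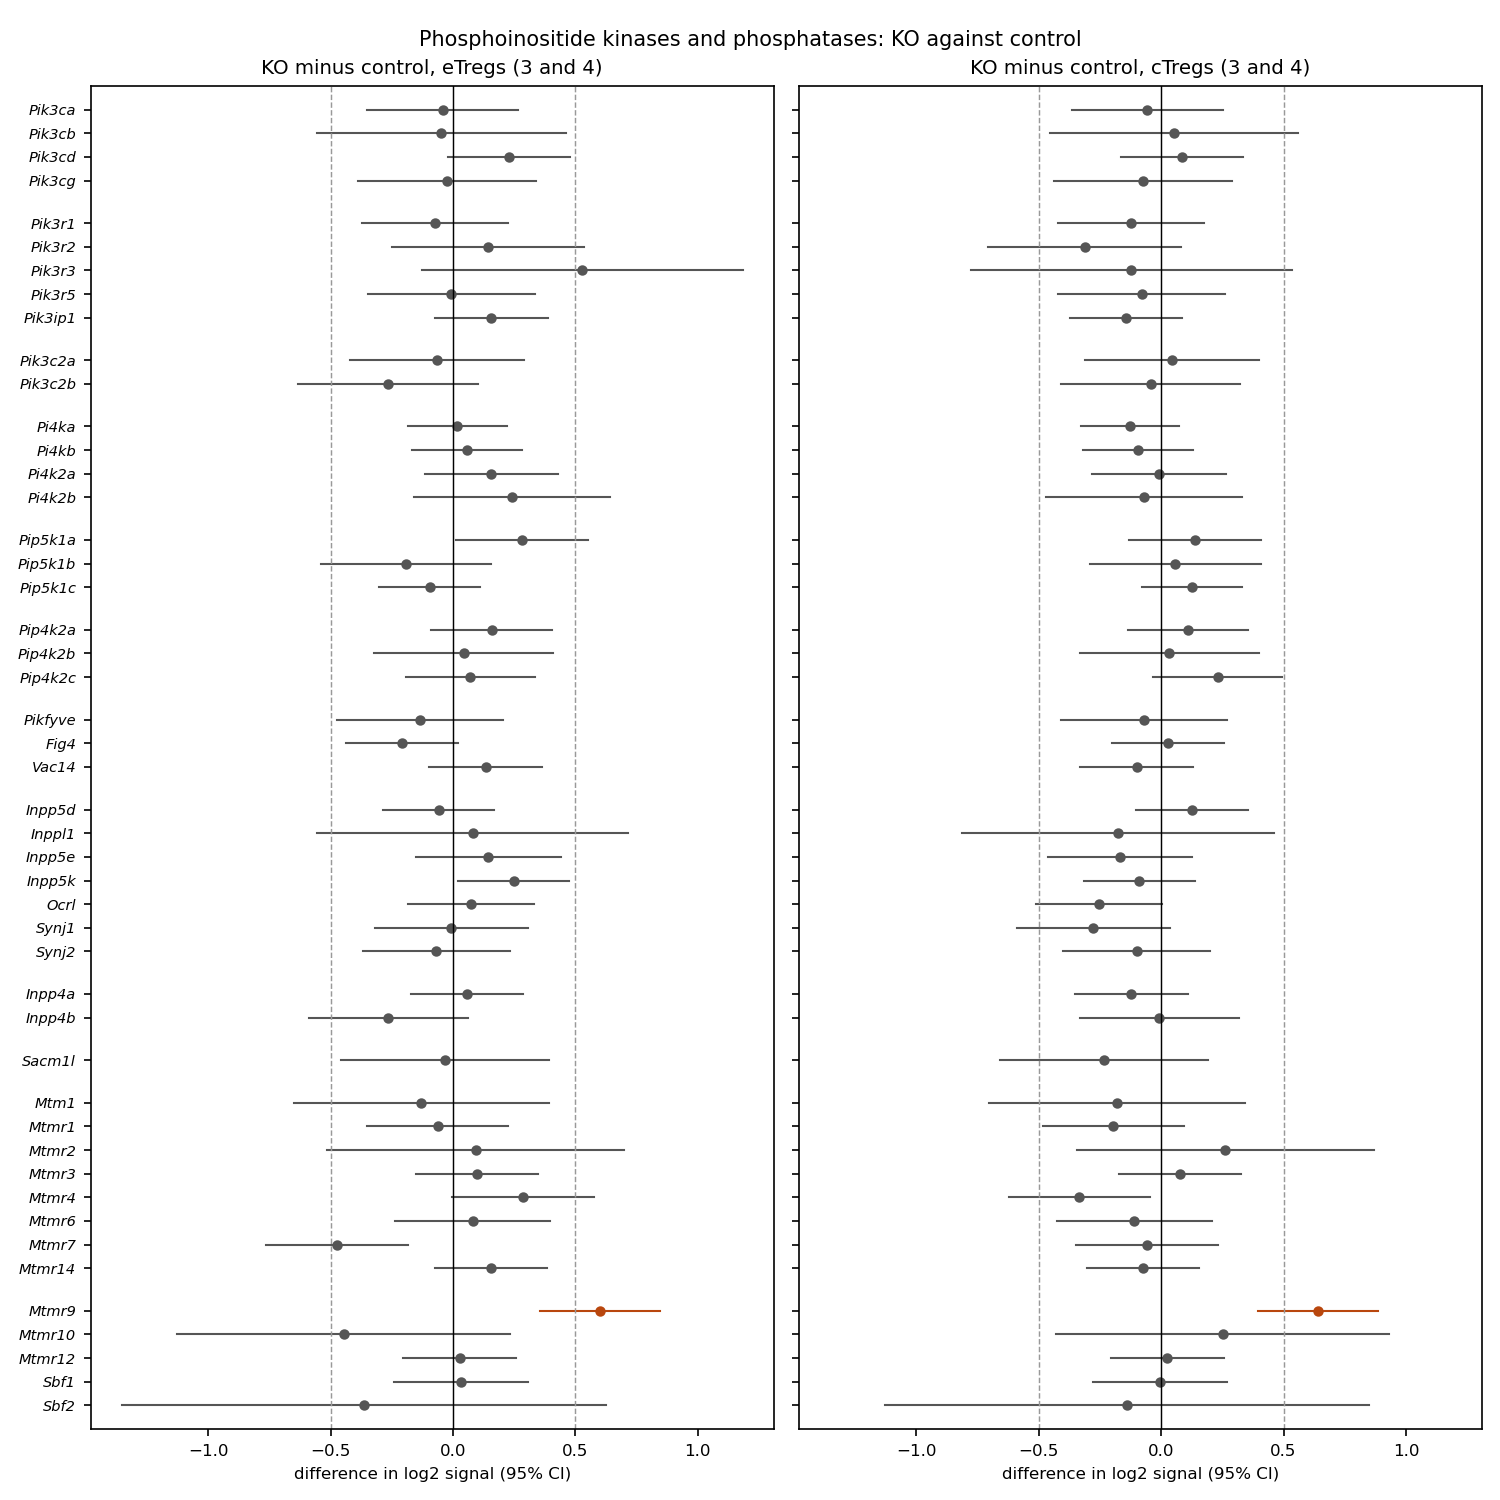
Difference in log2 signal between KO and control (x axis) for each of the 47 members (y axis, grouped by role), in eTregs (left, 3 and 4 arrays) and cTregs (right, 3 and 4 arrays). Points are limma estimates, lines are 95% confidence intervals, dashed lines mark a difference of 0.5, and orange marks members past the study's threshold. Mtmr9 is the orange member in both panels, at 0.60 and 0.64.

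Other genotype differences were smaller or less certain. Mtmr7, an active myotubularin, read 9.32, 9.07 and 9.21 in KO eTregs and 9.80, 9.84, 9.63 and 9.43 in control eTregs, without overlap, for a difference of -0.47 (adjusted P = 0.271). It was -0.54 without KO eTreg 1 (adjusted P = 0.111) and -0.35 without KO eTreg 2 and 3 (adjusted P = 0.766). Inpp5k read 12.09 to 12.25 in KO eTregs and 11.80 to 12.01 in control eTregs, a difference of 0.25 (adjusted P = 0.558). Pik3cd was 0.23 higher in KO eTregs without overlap (adjusted P = 0.671). Pik3r3 differed by 0.53 in eTregs (adjusted P = 0.732), and 1 control eTreg array at 7.91 set the spread. The value was 0.72 without KO eTreg 1 and 0.16 without KO eTreg 2 and 3, with adjusted P of 0.378 and 0.997. In cTregs Mtmr4 differed by -0.33 without overlap (adjusted P = 1.00), and the next largest negative difference was -0.31, for Pik3r2. The PIP 4-kinases, the PIKfyve complex and the PI 4-kinases differed by -0.21 to 0.24 in eTregs and by -0.13 to 0.23 in cTregs.

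In the interaction, which asks whether the genotype difference is the same in both subsets, 1 of 47 members was past the study's threshold, beside 3.05% of all transcript clusters. This was Mtmr4, whose product dephosphorylates PI3P on early and recycling endosomes. Its signal was 10.45, 10.65, 10.43 and 10.83 in control cTregs and 10.37, 10.27 and 10.13 in KO cTregs. In eTregs it was 10.67, 10.21, 10.36 and 10.15 in controls and 10.66, 10.52 and 10.73 in KO. KO arrays were thus below all control arrays in cTregs, and overlapped with control eTreg 1 alone in eTregs. The interaction was 0.62 ± 0.19 (SE), with an adjusted P of 0.736, from differences of -0.33 in cTregs and 0.29 in eTregs. It was 0.61 without KO eTreg 1 and 0.64 without KO eTreg 2 and 3. The count was 2 without control cTreg 1, control cTreg 4, control eTreg 2 or KO eTreg 1, and 3 without KO cTreg 2. The shares of all transcript clusters in these left-out fits are not given here.

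The proteins that read these lipids were examined through 3 further lists. Of the 24 listed effectors of PI3P and PI(3,5)P2, 1 was called higher and 0 lower in eTregs of controls, and 2 higher and 0 lower in KO, beside 3.06% and 2.35% of all transcript clusters in either direction. Eea1, an early endosome tether that binds PI3P, read 9.89, 9.34, 9.82 and 9.63 in control cTregs and 11.68, 11.43, 11.76 and 11.56 in control eTregs, a difference of 1.94 (adjusted P = 3.95e-06). In KO it read 9.49, 9.42 and 9.65 in cTregs and 10.56, 11.12 and 11.36 in eTregs, a difference of 1.49 (adjusted P = 0.000360). This was 1.72 without KO eTreg 1 (adjusted P = 3.45e-06) and 1.04 without KO eTreg 2 and 3 (adjusted P = 0.0478). All KO eTreg arrays lay below all control eTreg arrays, by 0.60 on average (adjusted P = 0.264), and the difference was -0.37 without KO eTreg 1 (adjusted P = 0.316) and -1.05 without KO eTreg 2 and 3 (adjusted P = 0.0574). Wdfy3, a PI3P-binding adaptor of selective autophagy, was called in KO, 1.07 higher in eTregs (adjusted P = 0.00950), with KO eTreg arrays at 7.43, 8.34 and 8.29. That difference was 0.48 without KO eTreg 2 and 3 (adjusted P = 0.562). All Wdfy3 signals lay below the 95th percentile of background, as did those of Plcd1 and Plcg2 named below, so their differences are within the range of background probes. Eea1 was above that mark on 7 eTreg and 3 cTreg arrays. Of genes named below, Pik3ap1 was above it on 5 eTreg and 0 cTreg arrays, Phlpp1 on 7 and 4, and Wdfy4 on 3 and 0. The differences of these 4 genes rest partly on signals within the range of background probes. The KO minus control difference of Wdfy3 in eTregs was 0.94 (adjusted P = 0.0815), and it was 0.35 without KO eTreg 2 and 3.

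Of 39 measured genes of the PIP3 and AKT branch, 2 were called higher and 0 lower in eTregs of controls, and 2 higher and 0 lower in KO, beside the same 3.06% and 2.35% of all. Phlpp1, a phosphatase that inactivates AKT, was 0.77 higher in control eTregs (adjusted P = 0.000631). In KO Phlpp1 was not called, at 9.74 to 10.01 in cTregs and 10.08 to 10.485 in eTregs. Pik3ap1, the adaptor BCAP that binds PI3 kinase, was 1.24 higher in control eTregs (adjusted P = 0.0346) and 2.17 higher in KO eTregs (adjusted P = 0.00339). It read 9.46 on KO eTreg 1 and 11.29 and 11.35 on KO eTreg 2 and 3, and its KO difference was 0.94 without the latter (adjusted P = 0.202). Dapp1, an adaptor that binds PIP3 and PI(3,4)P2, was 0.60 higher in eTregs than in cTregs of KO (adjusted P = 0.0417). This difference was 0.69 without KO eTreg 1 (adjusted P = 0.0142) and 0.42 without KO eTreg 2 and 3. In controls Dapp1 was not called, at 10.85 to 11.36 in cTregs and 11.35 to 11.78 in eTregs. KO eTregs read 11.41 to 11.70. Of the 25 genes of the phospholipase C and diacylglycerol branch, 1 was called higher and 0 lower in each genotype, again beside 3.06% and 2.35% of all. In controls it was Plcd1, a phospholipase C, 0.59 higher in eTregs (adjusted P = 0.0205). In KO it was Plcg2, the phospholipase C of B and myeloid cells, 1.08 higher (adjusted P = 0.0494), at 6.61 on KO eTreg 1 and 7.57 and 8.25 on KO eTreg 2 and 3, and 0.21 without these. No gene of these 3 lists was called at the adjusted threshold between genotypes with all arrays. Without KO eTreg 1, Pik3ap1, Plcg2, Wdfy3 and Wdfy4 were called higher in KO eTregs, by 1.72, 1.27, 1.23 and 0.75. The share of all transcript clusters called in that fit is not given here. Without KO eTreg 2 and 3, Pik3ap1, Plcg2 and Wdfy3 differed by -0.14, -0.04 and 0.35. With all arrays, 4 genes of these lists were past the study's threshold in eTregs (Pik3ap1, Plcg2 and Wdfy3 higher in KO, Eea1 lower). In cTregs 0 were past it and in the interaction 3 (Wdfy3, Plcg2 and Arap2). Of all transcript clusters, 2.72%, 0.576% and 3.05% were past it. The high values of Pik3ap1, Plcg2 and Wdfy3 lay on the arrays with high macrophage and dendritic cell gene signals, and the part of other cells in them was not tested.

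**Figure D4:**
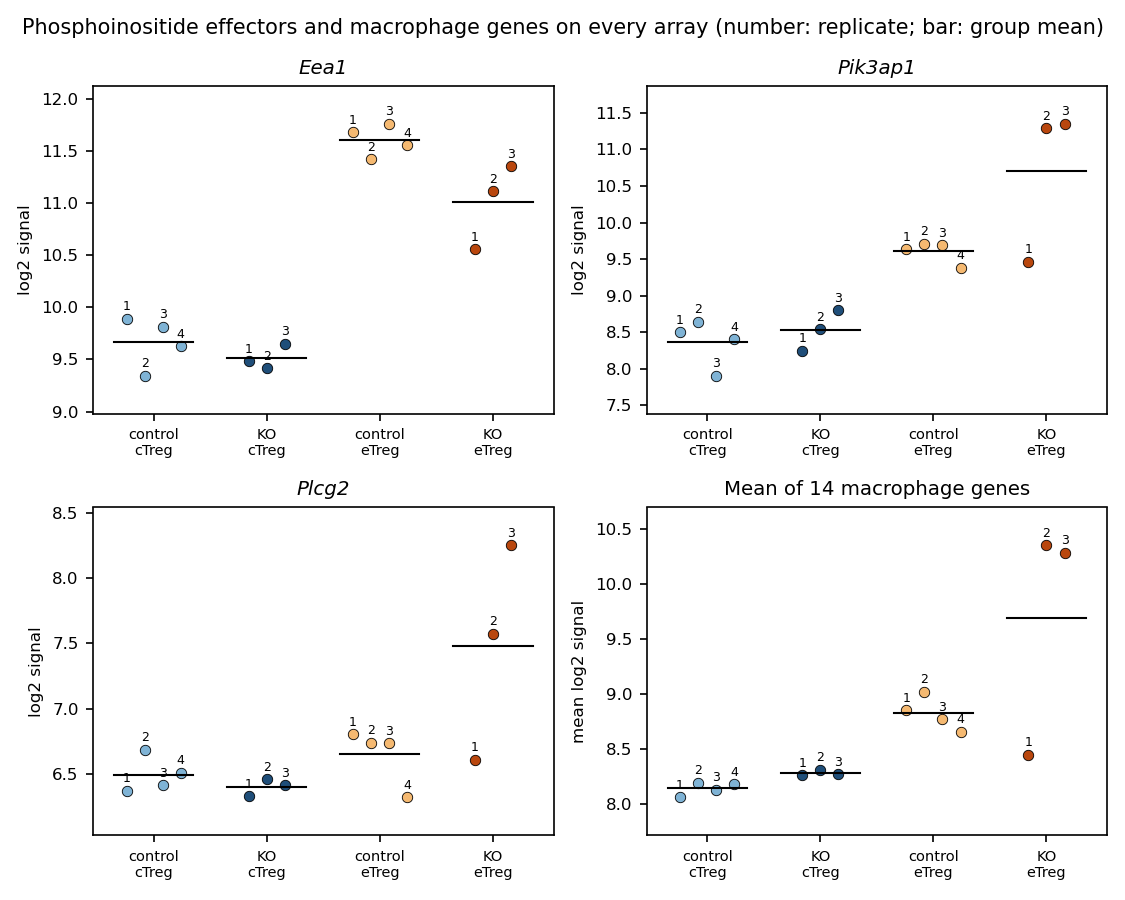
Log2 signal (y axis) of the effector genes Eea1, Pik3ap1 and Plcg2, and the mean log2 signal of 14 monocyte and macrophage genes, on each of the 14 arrays by group (x axis). Points are arrays with their replicate number, bars are group means, and each panel has its own scale. Eea1 is high on all eTreg arrays, while Plcg2 and the macrophage genes are highest on KO eTreg 2 and 3.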

How the data were processed

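Tregs were profiled on 14 Clariom S arrays. The authors deposited log2 signals per transcript cluster, made by robust multi-array average (RMA) in Affymetrix Expression Console 1.1 per the labels, a method that corrects background, quantile normalises and summarises probes. No genome build is given for the array identifiers. Of 28846 entries, 6640 control probe sets and 3 without a symbol were left out, and 22203 were tested without a filter. Scanner files were not used here, and the number of arrays limits the precision. Here a model with 4 group means was fitted to the deposited log2 values with lmFit and eBayes (limma 3.58.1, R 4.3.3), and P values were Benjamini-Hochberg adjusted over all transcript clusters. The procedure was tested on simulated data. Members, role groups and pathway lists were chosen with earlier results of these data known. All members may be named, those called are given per array, and of each pathway list at most 5 called genes per comparison. Which arrays share a mouse is not given. Residuals of same-numbered arrays correlated at 0.0443 to 0.303 within a genotype and at -0.00562 to 0.498 over all pairs of groups. For 11 of 14 arrays the closest array of another group had the same number. The main fit still did not pair the arrays, because the labels give no pairing, and replicate blocks were run as alternatives. Alternatives covered centring, a filter on dim transcript clusters, variance models, array weights, 2-group fits, replicate blocks and each array left out.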

Additional observations from a re-analysis of the deposited data

Results flagged for a closer look

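In groups of 4 control arrays, 1 array stood far from the other 3 for 4 of the 94 combinations of member and group examined by Dixon's test, a rate near the 1 in 20 that chance gives. Pik3r2 read 8.73 on control cTreg 4 against 9.31 to 9.40 on the others. Pi4ka read 12.17 on control eTreg 2 against 12.04 to 12.06. Pikfyve read 9.004 and Mtmr12 read 10.74 on control eTreg 1, against 9.64 to 9.75 and 10.98 to 11.01. Mtmr4 was also singled out because its KO minus control difference was not the same in both subsets, with an interaction of 0.62 (limma, adjusted P = 0.736).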

How the results depend on the processing

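The subset differences of Inppl1, Pik3ip1 and Mtmr9, the genotype differences of Mtmr9 and the Mtmr4 interaction kept their direction under all alternatives run. With single arrays left out, members called at the adjusted threshold numbered 2 to 4 in the subset comparison of controls, 1 to 6 in that of KO, 0 to 1 between genotypes in eTregs, and 0 in cTregs and in the interaction. Past the study's threshold they numbered 1 to 4 in eTregs, 1 to 2 in cTregs and 1 to 3 in the interaction. The shares of all transcript clusters are not given here for most of these fits. The fit of the 2 KO groups only called 1 member. Mtmr9 passed the adjusted threshold between genotypes, for a count of 1, in eTregs and in cTregs under the filter on dim transcript clusters (which kept 34 members of 47 and 8062 transcript clusters), under trended robust variance and under array weights, and in cTregs also with 75th percentiles subtracted; the fewer genes tested account for part of the first. Under array weights 2 members were past the study's threshold in eTregs. With KO eTreg 2 and 3 both left out, an alternative chosen after seeing the data, 0 members were called in the KO subset comparison, and 2 in eTregs and 3 in the interaction were past the study's threshold; the lone KO eTreg array is then assumed to vary like the other groups. In other cases the cause was not tested. The replicate block across all groups gave 3 members past the study's threshold between genotypes in eTregs (Pik3r3, Mtmr7 and Mtmr9), and called Ocrl beside Inppl1 and Mtmr9 in the KO subset comparison (3 members). It changed no other call of a member. The replicate block nested in genotype, which pairs same-numbered cTreg and eTreg arrays, left the same members called in all comparisons. Of the 14 arrays, 11 correlated best in their residuals with an array of their own number, a hint from the data and not the design. Members within the range of background probes can show little of any difference.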
